A study of Trichechus manatus latirostris with 11 samples.

Results

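The genes described here remove reactive oxygen species, supply the NADPH needed for this, or build the phagocyte NADPH oxidase that makes superoxide. Their RNA was measured in the buffy coat, the layer of white blood cells and platelets of centrifuged blood, of Florida manatees. The members were fixed as 49 gene symbols, and 34 of these symbols had a row in the deposited table. Since 3 symbols had several transcript records, the members comprise 38 of the 15298 rows. The study compared 4 adult manatees treated for red tide illness at Lowry Park Zoo (ZooTampa) with 7 adult control manatees. Red tides in Florida are blooms of an alga that makes brevetoxins. Of the controls, 2 came from Brevard County (Indian River Lagoon), 4 came from Crystal River, and 1 was recovering from pneumonia at the zoo. In every library ribosomal and globin RNA had been depleted before sequencing. Of the red tide manatees 2 were sampled on arrival and 2 after a week of treatment, and which library belongs to which of them is not known. Illness, place and date of sampling differed largely together between the groups and cannot be told apart, although 1 control was also ill and at the zoo. The red tide samples were described as frozen at once, while RNAlater was described for each animal, so that storage may also have differed.

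Superoxide is turned into hydrogen peroxide by superoxide dismutases, and the peroxide is then broken down by catalase, glutathione peroxidases and peroxiredoxins. Glutathione and thioredoxin provide the electrons for the glutathione peroxidases and peroxiredoxins. These donors are themselves reduced with NADPH, much of which comes from the pentose phosphate pathway. The transcription factor NRF2, encoded by NFE2L2, is kept low by KEAP1 and switches on many of these genes together with small MAF proteins. Neutrophils and other phagocytes also spend NADPH in the oxidase, whose superoxide helps to kill microbes.

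The deposited values are mean normalized counts, that is, read counts divided by a size factor for each library, and they are given for each group and not for each animal. The columns do not name their groups, but one mean is taken over 4 libraries, as many as there were red tide manatees, and the other over 7, as many as there were controls. In the deposited table, only these numbers and the order in its title tie the means to red tide and control. The assignment is uncertain. Every direction is therefore given between the 4-library mean and the 7-library mean, and none is a statement on red tide against control. No test of single genes can be made from 2 means, so a gene was called where the means differed at least 2-fold. For rows with low means the whole reads behind a mean could be recovered library by library, and these libraries are known by their size factor but not by animal. The size factors were 1.56, 1.03, 0.620 and 0.372 in the 4-library group and ranged from 0.702 to 1.73 in the 7-library group. The authors gave a mean and a range of reads per sample, but which library had which total is unknown. Each library was made from a different manatee. In whole buffy coat, fewer cells of a type and less RNA per cell cannot be told apart.

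Across the 38 rows the 4-library mean was at least 2-fold the 7-library mean for 5 rows, or 13.2%, against 23.9% of all rows. In the opposite direction 5 rows, again 13.2%, were at least 2-fold apart, against 10.4% of all rows. The other 28 rows lay within 2-fold. The rows with the higher 4-library mean were records of GCLC, GSS, MSRB2, MAFK and NFE2L2, and those with the higher 7-library mean were GPX1, PGD, a record of NFE2L1, GLRX and TXN2. The median log2 ratio of the 4-library to the 7-library mean was -0.21 over the members and 0.14 over all rows. With all ratios shifted by this all-row median, the counts became 4 and 7 rows, against 21.4% and 13.1% of all rows. Just inside the threshold were NFE2L2 (2.04-fold) and TXN2 (2.02-fold), and just outside it were NCF1 (1.92-fold) and TXNRD2 (1.86-fold).

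Most members were well measured, with 34 rows at a mean of at least 10 over the 11 libraries and 23 rows at a mean of at least 100. Among these 23 rows none had a 4-library mean of at least 2-fold the other, where 8.76% of all rows with such a mean did. GPX1, GLRX and PGD, 3 of the 23 rows, were at least 2-fold higher in the 7-library mean, where 8.09% of all rows with such a mean were. The median log2 ratio of these 23 rows was -0.35, and that of all rows with such a mean was -0.04.

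**Figure D1:**
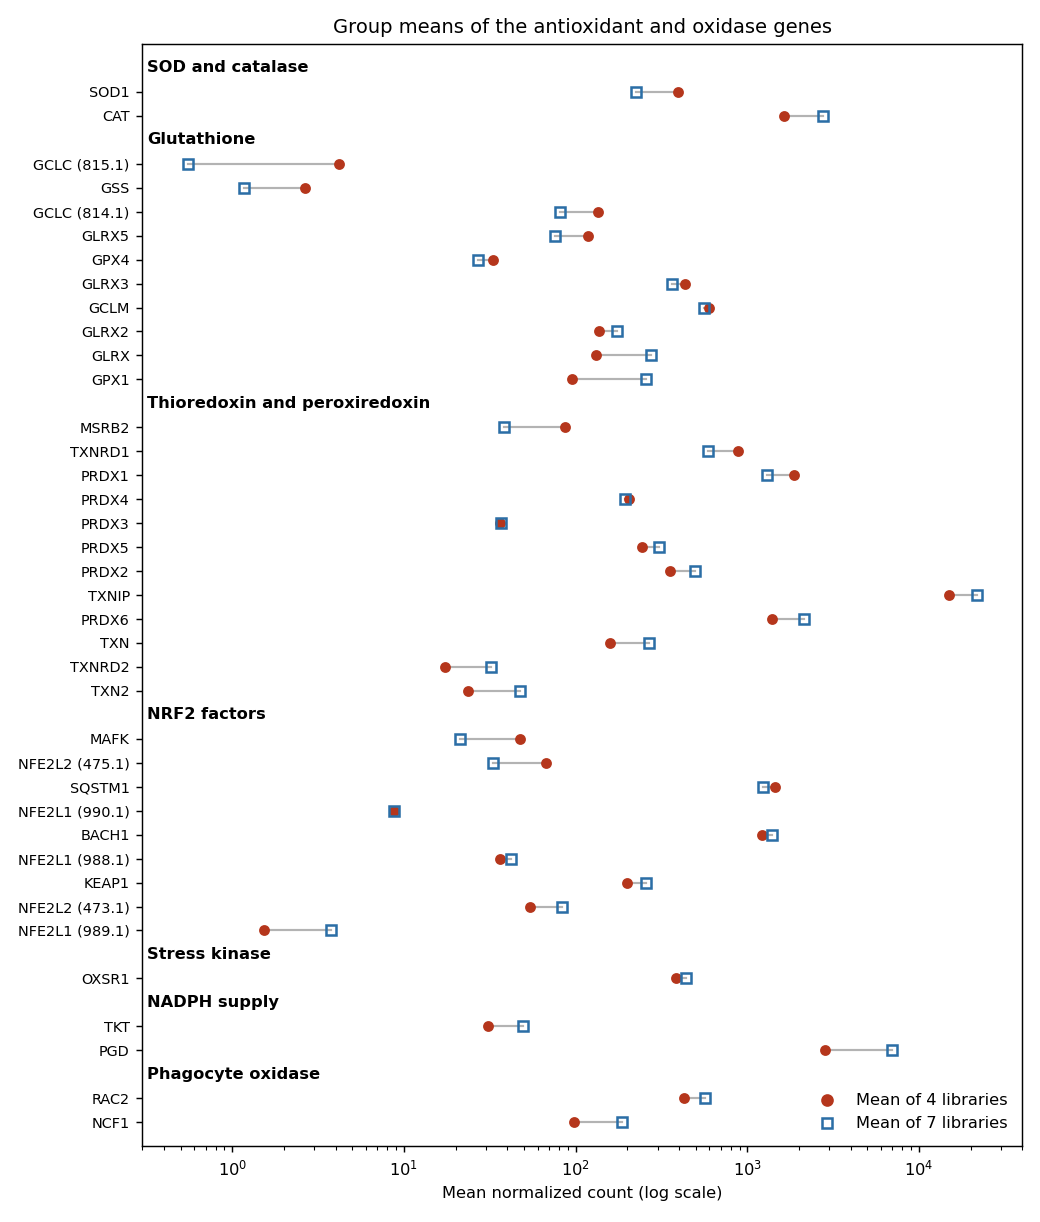
Mean normalized count (log axis) of each of the 38 member rows in the 4 libraries (filled circles) and in the 7 libraries (open squares), grouped by role and ordered by ratio within a role. The last digits of the record stand behind symbols with several records, and 15 rows have the circle to the right of the square while 23 have it to the left.

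**Figure D2:**
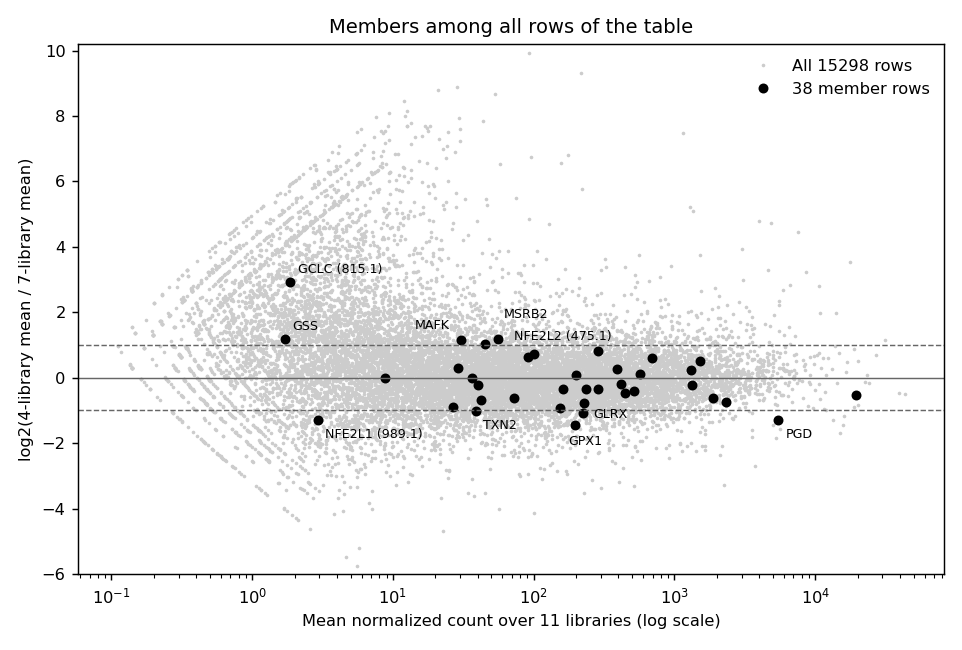
Log2 ratio of the group means against the mean normalized count over 11 libraries (log axis) for all 15298 rows (grey) and the 38 member rows (black). Dashed lines mark a 2-fold difference, and the 10 member rows at or beyond them are named; of these only GPX1, GLRX and PGD have a mean of at least 100.

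Of the enzymes that act first on superoxide and on hydrogen peroxide, SOD1 and CAT were measured. SOD1, the cytosolic copper and zinc dismutase, had a mean normalized count of 392 in the 4 libraries and 225 in the 7 (1.74-fold higher). CAT, which encodes catalase, went in the other direction, with 1638 in the 4 libraries and 2745 in the 7 (1.68-fold lower). Both genes stayed within 2-fold, and their reads in single libraries could not be recovered. The mitochondrial dismutase SOD2 and the extracellular dismutase SOD3 were not analysed here.

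The glutathione genes comprised 10 rows with a median log2 ratio of 0.27. Of these rows 2 (20%) were called with the higher 4-library mean, against 23.9% of all rows. In the other direction 2 (20%) were called, against 10.4% of all rows. Glutathione is built in successive steps. The 4 rows of its synthesis, 2 of them records of GCLC, all had the higher 4-library mean as deposited. The same direction was seen in 8629 of all 15298 rows. GCLM differed by less than the all-row shift of 0.14, and the direction of GSS rested on 1 library. GCLC, the catalytic subunit of glutamate-cysteine ligase and the rate-limiting enzyme, had 2 records. The record with more reads, XM_004386814.1, had 134 normalized counts in the 4 libraries and 81.3 in the 7 (1.65-fold). GCLM, the modifier subunit, hardly differed, at 598 against 558 (1.07-fold).

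The weak GCLC record, XM_004386815.1, was the member with the largest ratio, 4.17 normalized counts against 0.553 (7.54-fold), and one of 3 member rows with reads known in all 11 libraries. In the 4 libraries, in the order of size factors above, it had 5, 5, 2 and 2 reads, or 3.21, 4.87, 3.22 and 5.38 normalized counts. In the 7 libraries 4 had no read, and the others had 2, 1 and 2 reads, the highest at 1.81 normalized counts. Every one of the 4 libraries was thus above every one of the 7, which held for 2.81% of the 4454 rows with reads known in all libraries. The reverse held for 3 of these rows. Rows were kept with a 7-library mean under 6 but a 4-library mean under 100, which favours rows lower in the 7. The means of this GCLC record were 4.17 ± 1.12 (SD, n = 4) and 0.553 ± 0.741 (SD, n = 7). The exact two-sided permutation test gave p = 0.00606, the smallest value that 4 against 7 libraries allow. After Benjamini-Hochberg adjustment over all 4454 rows this exact permutation p became 0.211, so the difference did not pass. The row rests on 14 reads in the 4 libraries and 5 in the 7, and reads shared between the records of GCLC may have been split. With both records summed, GCLC had 138 normalized counts in the 4 libraries and 81.8 in the 7, a log2 ratio of 0.76.

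GSS, glutathione synthetase, which completes the molecule, was close to the limit of detection. It had 0, 1, 1 and 3 reads in the 4 libraries, and 1, 0, 7, 1, 0, 1 and 0 reads in the 7. The groups overlapped, and in each of them a single library held most of the reads. The means were 2.66 ± 3.66 (SD, n = 4) and 1.17 ± 2.11 (SD, n = 7), with an exact permutation p of 0.285 (0.610 adjusted over the 4454 rows). Without the library of size factor 0.372 the direction turned, from a log2 ratio of 1.18 to -0.44. GSR, which reduces oxidized glutathione, was not analysed here.

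**Figure D3:**
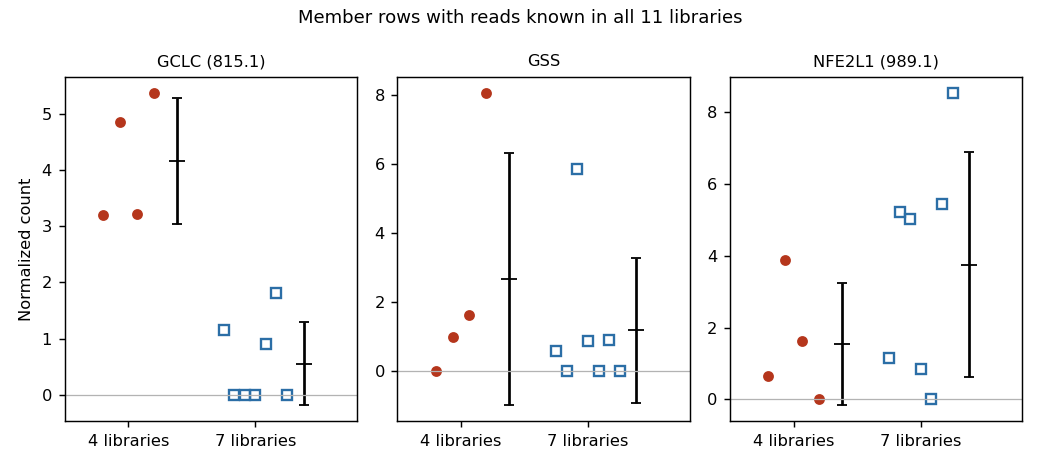
Normalized counts of the 3 member rows with reads known in every library, 4 libraries as filled circles and 7 as open squares, with the mean and SD of each group as black bars beside the points. The record of GCLC shows no overlap between the groups, whereas those of GSS and NFE2L1 do.

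The glutathione peroxidases measured, GPX1 and GPX4, differed from each other. GPX1, a selenoenzyme that reduces hydrogen peroxide, had 109, 94.4, 111 and 64.6 normalized counts in the 4 libraries, from 170, 97, 69 and 24 reads. All of them were far below the 7-library mean of 257. The 4-library mean of 94.8 ± 21.5 (SD, n = 4) was 2.71-fold lower, the largest such difference among the members, and the difference of the means was -7.53 times the SD of the 4 libraries. This difference was not tested, because the spread of the 7 libraries is unknown for GPX1. GPX4, which reduces lipid peroxides in membranes, had 40.4, 22.4, 41.9 and 26.9 normalized counts, around the 7-library mean of 27.0. GPX3 and GPX7 were not analysed here.

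The glutaredoxins use glutathione to reduce mixed disulfides or carry iron-sulfur clusters, and they did not move together. GLRX, the cytosolic form, had 131 normalized counts in the 4 libraries and 276 in the 7 (2.10-fold lower). GLRX5, a mitochondrial protein of iron-sulfur cluster assembly, was 1.57-fold higher, at 119 against 75.8. GLRX3 was at 436 and 365, and GLRX2 was at 137 and 175, in the 4 and the 7 libraries respectively.

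The thioredoxin and peroxiredoxin system comprised 12 rows, 1 of them (8.33%) called in each direction, and their median log2 ratio was -0.40. Of all rows, 23.9% were called with the higher 4-library mean and 10.4% with the higher 7-library mean. The cytosolic and mitochondrial branches of the system both contained genes with lower 4-library means. TXN, the cytosolic thioredoxin, was 1.70-fold lower, with 158 normalized counts in the 4 libraries and 268 in the 7. Its reductase TXNRD1, a selenoprotein and a known NRF2 target, was 1.51-fold higher instead, at 885 against 586. TXNIP, which binds and inhibits thioredoxin, had 15022 normalized counts in the 4 libraries and 21844 in the 7 (1.45-fold lower).

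The mitochondrial thioredoxin TXN2 had 16.7, 34.1, 19.3 and 24.2 normalized counts in the 4 libraries, all below the 7-library mean of 47.5. Its 4-library mean was 23.6 ± 7.66 (SD, n = 4), 2.02-fold lower, and the difference was under 2-fold without the library of size factor 1.56 or that of 0.620 (log2 ratios of -0.88 and -0.93). TXNRD2, the mitochondrial reductase, had 30.8, 14.6, 4.84 and 18.8 normalized counts, likewise all below the 7-library mean, here 32.1. One library nearly reached that mean, and TXNRD2 was the most variable of the 12 members with known reads and a 4-library mean of at least 10 (SD 10.8, coefficient of variation 62.3%). PRDX3, the peroxidase that TXN2 serves, had 54.5, 46.7, 25.8 and 18.8 normalized counts, on both sides of the 7-library mean of 36.8.

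The peroxiredoxins, which remove peroxides, all lay within 2-fold. PRDX1 was 1.44-fold higher in the 4-library mean (1874 against 1301), and PRDX4, the form of the endoplasmic reticulum, was at 206 against 194. PRDX6 was 1.52-fold lower (1399 against 2130), PRDX2 was 1.39-fold lower (356 against 495), and PRDX5 was 1.26-fold lower (244 against 308). PRDX2 is the peroxiredoxin that red blood cells hold in large amounts. The markers of red cell precursors in 5 rows, summed, stood at 644 normalized counts in the 4 libraries and 817 in the 7. These markers did not move together. The 7-library mean was higher for 3 rows, among them ALAS2 (168 against 467). It was lower for 2 rows, GATA1 (418 against 288) and KLF1 (4.23 against 1.59). The part of the red cell markers in the result for PRDX2 was not tested.

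MSRB2 repairs oxidized methionine in mitochondria and was the only row of this system called with the higher 4-library mean. The 4 libraries had 71.8, 94.4, 103 and 75.3 normalized counts, from 112, 97, 64 and 28 reads. All lay well above the 7-library mean of 38.1. The 4-library mean of 86.2 ± 15.1 (SD, n = 4) was 2.26-fold higher, and leaving out any library kept the log2 ratio between 1.08 and 1.25. MSRA and SRXN1 were not analysed here.

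The NRF2 pathway factors comprised 9 rows of 6 genes, with a median log2 ratio of -0.21. Of these rows 2 (22.2%) were called with the higher 4-library mean, against 23.9% of all rows. In the other direction 1 (11.1%) was called, against 10.4% of all rows. MAFK, a small MAF protein that pairs with NRF2 or with BACH1 on DNA, had 57.7, 34.1, 51.6 and 45.7 normalized counts in the 4 libraries. Each of these was above the 7-library mean of 21.1. The 4-library mean was 47.3 ± 10.1 (SD, n = 4), 2.24-fold higher, and the log2 ratio stayed between 1.05 and 1.29 without any library. MAFF and MAFG, the other small MAF genes, were not analysed here.

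NFE2L2 itself had 2 records that differed in opposite directions. Record XM_004375475.1 had 66.1, 71.1, 61.2 and 69.9 normalized counts in the 4 libraries, above the 7-library mean of 32.8. These were the least variable values of the 16 member rows with known reads (67.1 ± 4.44, SD, n = 4, coefficient of variation 6.62%), and the mean was 2.04-fold higher. Record XM_004375473.1 had 38.5, 65.2, 69.3 and 43.0 normalized counts, all below the 7-library mean of 82.7. Its 4-library mean of 54.0 ± 15.5 (SD, n = 4) was 1.53-fold lower. Summed, NFE2L2 had 121 normalized counts in the 4 libraries and 116 in the 7, a log2 ratio of 0.07, so the gene as a whole hardly differed. Only uniquely mapped reads were counted, and how reads common to both records were assigned is not given in the sources used here.

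KEAP1, which marks NRF2 for degradation, had 200 normalized counts in the 4 libraries and 256 in the 7 (1.28-fold lower). BACH1, a repressor that competes with NRF2 for the same DNA elements, was at 1212 against 1399. SQSTM1, an autophagy adaptor that binds KEAP1, was at 1443 against 1226. These regulators differed less than 1.5-fold.

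NFE2L1, a related factor anchored in the endoplasmic reticulum, had 3 records with low counts. Record XM_004377988.1 had 30.8, 26.3, 48.4 and 40.4 normalized counts, around the 7-library mean of 42.2. Record XM_004377990.1 ranged from 0 to 19.3 over the 4 libraries, with means of 8.78 and 8.79. Record XM_004377989.1 had 1, 4, 1 and 0 reads in the 4 libraries and 2, 8, 6, 1, 0, 6 and 6 reads in the 7. Its groups overlapped, with means of 1.54 ± 1.71 (SD, n = 4) and 3.75 ± 3.13 (SD, n = 7) and an exact permutation p of 0.194 (0.514 adjusted over the 4454 rows). The 2.44-fold lower mean of this record became a log2 ratio of -2.32 without the library of size factor 1.03 and -0.87 without that of 0.372. Summed, the 3 records gave 46.8 and 54.7 normalized counts, a log2 ratio of -0.23. The quinone reductases NQO1 and NQO2 were not analysed here, and OXSR1, a kinase that responds to osmotic and oxidative stress, was at 386 in the 4 libraries and 436 in the 7.

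For 12 member rows with a 4-library mean between 10 and 100 the values of the 4 libraries can be set one by one against the 7-library mean. All 4 libraries lay above it for 3 rows (MAFK, MSRB2 and the record XM_004375475.1 of NFE2L2), and this pattern was seen in 15.6% of all 5487 rows of this kind. In 6 rows all 4 lay below it (GPX1, NCF1, TXN2, TXNRD2, TKT and the other record of NFE2L2), against 21.3% of all such rows. GPX4, PRDX3 and the record of NFE2L1 had libraries on both sides. The upper limit of 100 on the 4-library mean keeps rows with lower 4-library means more easily than the reverse, for members and all rows alike.

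**Figure D4:**
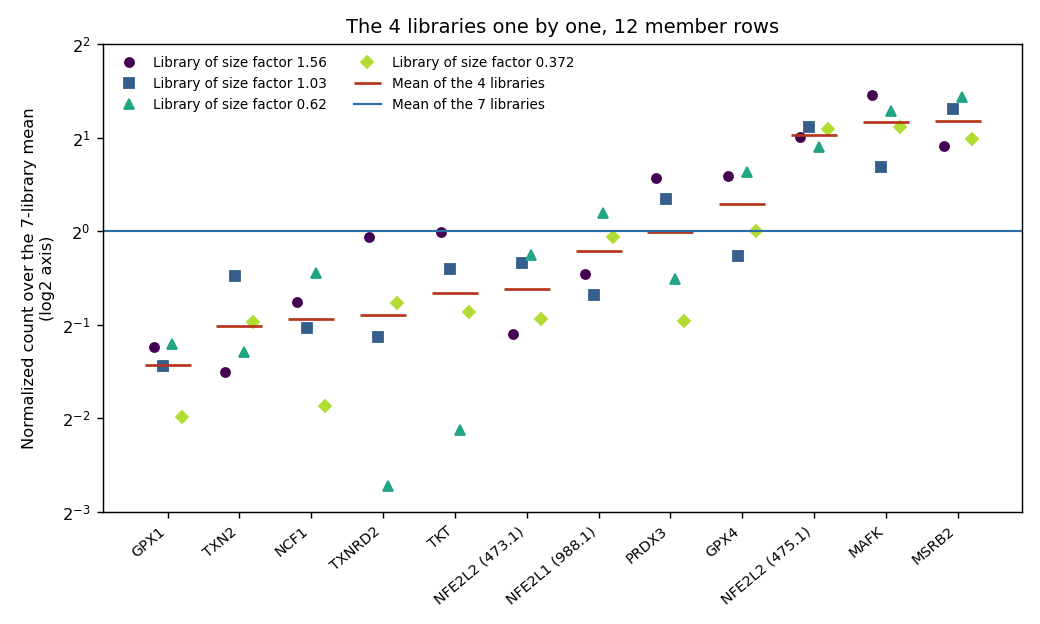
Normalized count of each of the 4 libraries divided by the 7-library mean (log2 axis) for 12 member rows, with the mean of the 4 libraries as a red bar and the 7-library mean as the blue line at 1. All symbols are below the line for the 6 rows on the left, GPX1 to the NFE2L2 record XM_004375473.1, and all are above it for the NFE2L2 record XM_004375475.1, MAFK and MSRB2.

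NADPH for the reductases and for the oxidase comes in large part from the pentose phosphate pathway, and both members measured there had the lower 4-library mean. PGD, the phosphogluconate dehydrogenase that makes NADPH, had 2850 normalized counts in the 4 libraries and 6965 in the 7 (2.44-fold lower). Its reads in single libraries could not be recovered. TKT, transketolase of the same pathway, had 48.8, 37.0, 11.3 and 26.9 normalized counts against a 7-library mean of 49.2. All 4 libraries were below that mean, one of them only just, and the mean of 31.0 was 1.59-fold lower. TALDO1 was not analysed here.

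Genes of the same supply that are no members were listed beside them. IDH1, a cytosolic isocitrate dehydrogenase that also makes NADPH, was at 104 against 481 (4.64-fold lower). PGLS was 1.77-fold lower and RPE 1.60-fold lower, whereas RPIA was 1.52-fold higher and ME1 1.42-fold higher. ME1 depended on 1 of the 4 libraries, without which its mean was 5.91 against 7.12. Of the 7 genes of NADPH supply described, 2 (PGD and IDH1) were at least 2-fold higher in the 7-library mean and none in the other, against 10.4% and 23.9% of all rows.

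Of the phagocyte oxidase, NCF1 and RAC2 were measured among the members. NCF1, the cytosolic organizer subunit, had 111, 91.5, 137 and 51.1 normalized counts in the 4 libraries, from 173, 94, 85 and 19 reads. All were below the 7-library mean of 187. The 4-library mean of 97.6 ± 36.2 (SD, n = 4) was 1.92-fold lower, and it passed 2-fold only when the library of size factor 0.620 or 1.56 was left out (log2 ratios of -1.15 and -1.01). RAC2, the small GTPase of blood cells that activates the oxidase, was at 425 against 567 (1.33-fold lower). CYBA and CYBB, the membrane subunits, and NCF4 were not analysed here. HVCN1, the proton channel that balances the charge moved by the oxidase, had 112, 59.4, 88.6 and 121 normalized counts, all below the 7-library mean of 212.

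Markers of neutrophils, which are rich in this oxidase, mostly had lower 4-library means as well. Of 20 neutrophil markers 12 had a row. Of these, 8 (66.7%) were called with the higher 7-library mean, against 10.4% of all rows. In the other direction 1 (8.33%), ARG1, was called, against 23.9% of all rows. The 12 markers had a median log2 ratio of -2.29, and their summed level was 5969 normalized counts in the 4 libraries and 18030 in the 7. CXCR2, the chemokine receptor of neutrophils, had 12.8, 38.0, 168 and 43.0 normalized counts against a 7-library mean of 598. CXCR1 (44.0 against 383), MMP9 (76.5 against 762), S100A9 (835 against 5429), S100A8 (576 against 2961) and CSF3R (425 against 1990) had lower 4-library means too. FPR1 (698 against 442) and MPO (4.44 against 2.34), markers of the same list, had higher ones. MPO rested on few reads, with 0, 5, 3 and 3 in the 4 libraries. The library of size factor 0.620 stood highest for CXCR2 and CXCR1, whose means were 31.3 and 17.8 without it, and ARG1 was no longer called without that of 0.372, at 1.07 against 0.811. The part of the neutrophil markers in the results for NCF1, RAC2, PGD and GPX1 was not tested.

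**Figure D5:**
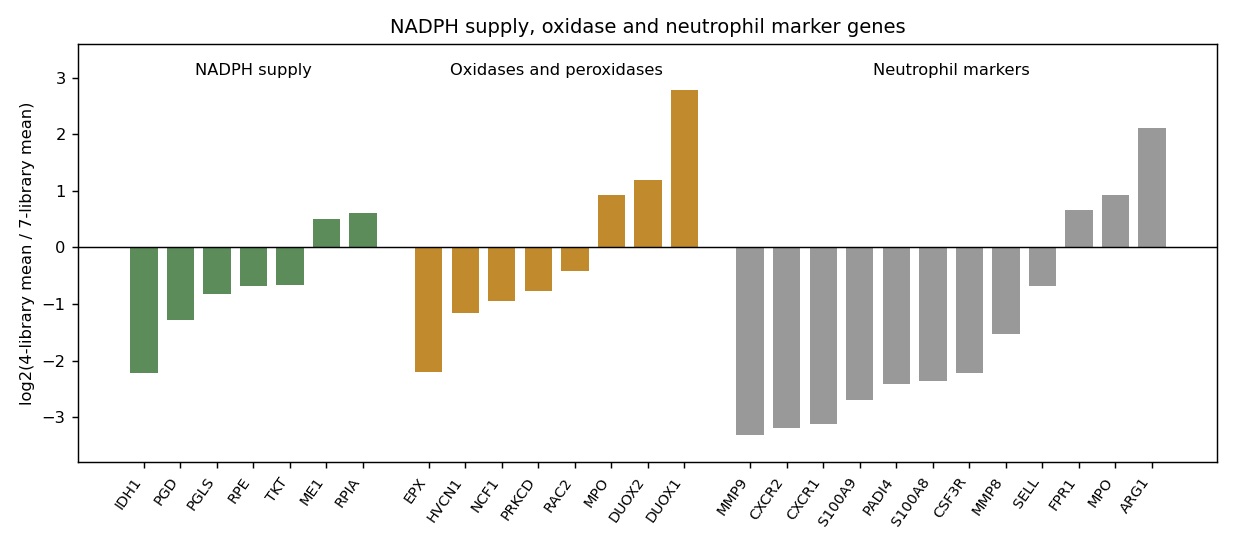
Log2 ratio of the 4-library to the 7-library mean for 7 genes of NADPH supply, 8 genes of oxidases, their regulators and peroxidases, and 12 neutrophil markers, with MPO in both of the latter. NCF1, RAC2, PGD and TKT are members; bars below 0 mean a lower 4-library mean, which holds for 5, 5 and 9 genes of the respective sets.

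Platelet markers, by contrast, stood higher in the 4 libraries. All 5 with a row had the higher 4-library mean, as did 8629 of all 15298 rows. The difference was at least 2-fold for 4 of the 5 (80%), against 23.9% of all rows. Their summed level was 15250 against 4419 normalized counts for the 5 markers. The direction of GP1BA rested on the library of size factor 0.620, without which its mean was 36.5 against 41.1. GP9 was also highest in that library, and its mean without it was 37.6 against 18.6. TUBB1, a platelet tubulin, was at 6392 against 1422, and ITGB3, a platelet integrin, was at 4725 against 1019. The other lists differed less in their summed levels, which were 2535 against 3117 for monocytes (7 rows), 3932 against 4051 for T cells (5 rows) and 809 against 853 for B cells (4 rows). How far the platelet markers bear on the members with a higher 4-library mean, such as SOD1, PRDX1 and MSRB2, was not tested.

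In the wider antioxidant list 29 rows are described, 3 of them called with the higher 4-library mean and 5 with the higher 7-library mean. These were 10.3% and 17.2%, against 23.9% and 10.4% of all rows. SLC7A11, which brings in cystine for glutathione synthesis, was 4.13-fold higher (313 against 75.9), the only gene called in this direction with a mean of at least 100. GPX8 (14.4 against 1.58) rested mainly on 1 library, at 46.7 against 3.21, 7.79 and 0 in the others, and GPX2 was at 2.99 against 1.48. Without the highest of the 4 libraries the mean of GPX8 became 3.67, while the log2 ratio of GPX2 turned to -0.19. HMOX1, the heme oxygenase and a textbook NRF2 target, had 59.0, 38.0, 37.1 and 10.8 normalized counts around a 7-library mean of 25.6. The ferritin genes went in opposite directions, with FTL 1.49-fold higher and FTH1 1.52-fold lower in the 4-library mean. Besides IDH1, those higher in the 7-library mean were MAF, GGCT, NXN and OXR1. MAF had 3 reads in the library of size factor 0.620 and none in the other 3, and the mean of NXN, 1.47 against 3.30, became 0.897 without the library of size factor 1.56. In the wider oxidase list of 6 rows, DUOX1 and DUOX2, dual oxidases of epithelia, were called with the higher 4-library mean, at 5.02 against 0.731 and 2.90 against 1.26. Both had their highest value in the library of size factor 0.620, without which their means were 1.32 and 0.641, the latter below the 7-library mean. HVCN1 and EPX were called with the higher 7-library mean. The 2 calls in each direction were 33.3% of the 6 rows, against the same 23.9% and 10.4% of all rows. EPX, the eosinophil peroxidase, was at 5.69 against 26.3, and at 3.36 without the library of size factor 1.03.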

How the data were processed

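The data are RNA-seq of buffy coats from 4 red tide manatees and 7 controls, analysed as a table of 15298 transcript records. The authors used Cutadapt against low quality reads and Bowtie2 for mapping to TriManLat1.0, discarded duplicates and reads without a unique position, counted the remaining reads for each gene sequence and ran DESeq in DEB. The sources used here do not name the counting program or the annotation release. The authors' deposited signal is the mean normalized count (counts divided by DESeq size factors) over 11, 4 and 7 libraries. The table also holds the authors' fold change, its log2 value, p-value and adjusted p-value, which were not used. No column holds a single sample, so 0 such columns were left unused, the planned test of counts per sample was not possible, and the design written for that case was used.

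Rows were matched to symbols by record, without its version, through the RefSeq table of TriManLat1.0; 10080 rows (65.9%) got a symbol. Of the 49 member symbols, 15 had no matched row: 4 were not in the RefSeq table (GPX3, SRXN1, CYBA, CYBB) and 11 had only records without a row. No sequence or transcript length was at hand, so levels are not compared between genes. The overall mean equals the group means weighted 4 and 7 of 11 in every row (largest relative deviation 3.3e-09).

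A group mean adds up the whole reads of its libraries, and what 1 read adds depends only on the library. Combinations of whole reads within 6e-10 of a mean below 10, or 6e-09 from 10 to 100, were searched, and single combinations were kept: 10144 of 10159 rows with a 4-library mean under 100 and 4468 of 4505 with a 7-library mean under 6, both for 4454 rows. On simulated reads with the same size factors, single combinations were found for 100%, 99.9% and 99.0% of means of 4 libraries under 10 (936 rows), of 4 libraries from 10 to 100 (985 rows) and of 7 libraries under 6 (710 rows), and 100% of them were the true reads. Values of 4 libraries exist for 16 member rows and of all 11 for 3.

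A row was called at a 2-fold difference. Exact two-sided permutation tests over all 330 splits used the mean normalized count, and adjustment over all 4454 rows replaced the planned adjustment over the members. SDs and p-values cover the spread between these libraries. All members are named; values of each library are given where known, and the related and marker genes named are mostly those at least 2-fold apart. Some related genes are not reported here and enter no count of the related lists. The members, lists and related genes were chosen with earlier results of these data known. Alternatives were a pseudocount of 1, centring on the all-row median, a minimum mean of 10 or 100, a threshold of 1.5-fold, summed records, a log scale in the permutation test and leaving out each library. Python 3.11.15, numpy 2.4.6, pandas 2.3.3, scipy 1.17.1 and matplotlib 3.10.9 were used.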

Additional observations from a re-analysis of the deposited data

Results flagged for a closer look

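GSS, glutathione synthetase, had 1 of the 7 libraries far above the others, at 5.87 normalized counts (7 reads) where the remaining 6 had 0 or 1 read. The gap to the next library was 0.846 of the whole range, above Dixon's critical value at 95% for 7 samples. This was the only such value in 19 groups of member values examined. Chance alone flags about 1 group in 20 where values are normally distributed, which need not hold for so few reads.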

How the results depend on the processing

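The count of 5 members at least 2-fold higher in the 4-library mean became 3 with a minimum mean of 10, 3 with the records of a symbol summed, and 9 at a threshold of 1.5-fold. The 5 members higher in the 7-library mean became 3 with a pseudocount of 1 and 12 at 1.5-fold. Of the 35 rows of related genes, 5 and 7 were called; the former became 3 with the pseudocount, 1 with the minimum mean and 9 at 1.5-fold, and the latter 4 with the minimum mean and 12 at 1.5-fold. The members' median log2 ratio of -0.21 became -0.35 when centred, -0.27 with the minimum mean and -0.22 with summed records. Of all rows, 23.9% were higher in the 4-library and 10.4% in the 7-library mean by this rule, and 12.3% and 9.59% with the minimum mean, 33.8% and 20.2% at 1.5-fold, 19.4% and 8.27% with the pseudocount, and 24.4% and 9.28% of symbols with summed records. The other planned settings moved these counts by no more than 1.5 times. Rows with a mean of at least 100, a setting added after the data had been seen, gave 0 and 3 calls, and 0 and 4 when centred.

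Leaving out each library in turn, the permutation p ranged from 0.00952 to 0.0167 for GCLC, from 0.0857 to 0.383 for NFE2L1 and from 0.105 to 0.783 for GSS, exact in each case; 0.783 is that without the library of size factor 0.372, where the log2 ratio of GSS turned from 1.18 to -0.44 (range -0.44 to 1.60). On the log scale the exact permutation p was 0.00606, 0.291 and 0.345. Over the 16 rows with known reads, 5 and 3 calls became 4 to 5 and 2 to 4 calls (added after the data had been seen). Apart from GSS, no called member row with known reads changed direction, while PGD and GLRX, whose reads are not known, could not be examined this way. No paired analysis was possible because libraries cannot be tied to replicate numbers. Low means limit GSS, the weak record of GCLC and that of NFE2L1, which rest on 5 to 14 reads in the 4 libraries.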
